A study of Mus musculus with 6 samples.

Results

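The genes described here are the antigen-presenting genes of the mouse major histocompatibility complex (MHC, called H2 in the mouse) and the genes that make, carry and load the peptides these molecules show. Members were taken by symbol: every protein-coding row of the count table whose symbol begins with H2-, together with B2m, Cd74, Ciita, Nlrc5, Tap1, Tap2, Tapbp, Psmb8, Psmb9, Psmb10, Psme1 and Psme2. The rule gave 46 members among 55450 rows, of which 21951 were protein-coding. They were 24 class I genes (2 classical, H2-K1 and H2-D1, and 22 nonclassical, called class Ib), 9 class II genes, 12 accessory genes, and H2-Ke6, which carries the name only for its place in the complex. Another 11 H2- rows were annotated as other gene types and stayed out. On the mouse assembly GRCm38, 39 of the 46 members lie on chromosome 17.

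The kidneys came from wild type male C57BL/6J mice that were bought at 7 weeks of age and kept for 1 week before the experiment. The 3 control mice made up the day-0 group, and their labels give 20% PEG as the treatment. The 3 mice of the day-21 group received adenine at 0.16 g/kg and potassium oxonate at 2.4 g/kg by gavage every day for 21 days, the study's model of hyperuricemia-related chronic kidney disease (CKD). The sources used here do not say whether or for how long the control mice were gavaged with PEG, so treatment, time and gavage cannot be told apart. The libraries were treated as separate mice, and if any were not, the p-values measure only the spread between libraries.

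As background, a class I molecule is a heavy chain held by beta-2 microglobulin (B2m); nearly all nucleated cells carry it and use it to show peptides from their own cytosol to CD8 T cells. Class II molecules are pairs of an alpha and a beta chain, made mainly by dendritic cells, macrophages and B cells, and show peptides from endosomes to CD4 T cells. Interferon gamma raises both classes, class I through the coactivator Nlrc5 and class II through the coactivator Ciita, which act through factors bound to the X and Y boxes of the promoters. In the kidney, class II is known from resident mononuclear phagocytes and can also appear on injured tubular epithelium.

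The promoters are shown first, because coactivators of both classes act through the X and Y boxes. Each stretch lies upstream of the most upstream RefSeq start site of its gene, is taken from RefSeq on build GRCm38.p6 and is written 5′ to 3′ on the strand of the gene. Capitals mark the Y box core (ATTGG), its longer class II form (CTGATTGG, which contains the core), the X2 core (TGACG), the kappa B letters (GGGATTCCC) and an interferon-stimulated response element (TTTCNNTTNC), each on either strand. The stretches are H2-K1 (chr17:34000351-34000473, minus strand), H2-Q7 (chr17:35439005-35439151, plus strand), B2m (chr2:122147524-122147646, plus strand), H2-Aa (chr17:34287859-34287981, minus strand), H2-Eb1 (chr17:34305698-34305844, plus strand) and H2-DMb2 (chr17:34145049-34145171, plus strand).
H2-K1: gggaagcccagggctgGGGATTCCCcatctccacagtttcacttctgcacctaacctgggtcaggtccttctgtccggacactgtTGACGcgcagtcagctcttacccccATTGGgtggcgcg
H2-Q7: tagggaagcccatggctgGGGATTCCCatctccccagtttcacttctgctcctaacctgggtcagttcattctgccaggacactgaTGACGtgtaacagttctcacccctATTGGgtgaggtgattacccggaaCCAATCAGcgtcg
B2m: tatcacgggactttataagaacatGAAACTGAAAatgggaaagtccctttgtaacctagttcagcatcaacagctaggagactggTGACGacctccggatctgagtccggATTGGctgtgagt
H2-Aa: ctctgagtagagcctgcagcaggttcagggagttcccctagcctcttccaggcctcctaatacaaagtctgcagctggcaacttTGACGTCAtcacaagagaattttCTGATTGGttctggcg
H2-Eb1: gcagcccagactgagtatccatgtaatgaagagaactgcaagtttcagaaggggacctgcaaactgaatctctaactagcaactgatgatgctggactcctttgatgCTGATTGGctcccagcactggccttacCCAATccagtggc
H2-DMb2: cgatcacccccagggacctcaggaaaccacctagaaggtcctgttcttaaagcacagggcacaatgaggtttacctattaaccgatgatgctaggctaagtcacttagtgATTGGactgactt

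Promoter windows running from 250 bases before to 50 bases after the start site were found for 39 of the 46 members. The Y box core was in 31 of them (79.5%), against 38% of the windows of all 27025 genes, and in 19 of 22 class I and 7 of 8 class II windows. These counts take either strand. All 7 class II windows had the core on the strand of the gene, while several class I windows, H2-M2 and H2-T23 among them, had it only on the other. The longer class II form was in 19 of the 39 member windows (48.7%) and in 4.31% of all windows. It was in 13 of 22 class I windows, each time on the opposite strand, and in 4 of 8 class II windows, each time on the strand of the gene. The X2 core letters TGACG were in 11 of 22 class I windows and in 1 of 8 class II windows, that of H2-Aa, against 20.9% of all windows. Only these exact letters were searched, so an X box with other letters was not counted.

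The distance between these boxes was alike in several members. In H2-K1, H2-D1, H2-M3 and B2m the first base of the X2 core lay 25 bases before the first base of a Y box core on the same strand. The same distance was 24 bases in H2-Q7 and 26 bases in H2-Aa. A pair of these letters 24 to 26 bases apart was present in 6 of the 39 member windows and in 33 of all 27025 windows (0.122%), a distance that was chosen after the matches were seen. H2-Eb1 and H2-DMb1 have no X2 core letters in this window, but share a run of 13 bases, aactgatgatgct, upstream of the Y box core, which was present in 3 of all 27025 windows. The kappa B letters were present in 4 member windows, those of H2-K1, H2-D1, H2-Q6 and H2-Q7, and in 0.374% of all windows. The interferon-stimulated response element letters (TTTCNNTTNC) were in 4 of 39 member windows (B2m, Psme1, H2-T22 and H2-T23) and in 8.1% of all windows. The run tttcacttct in the printed H2-K1 and H2-Q7 stretches differs from these letters only in its last base and was not counted. The gamma-activated site (TTCNNNGAA) was in 4 member windows and in 8.42% of all windows. A match of letters shows neither binding nor use of the site, and the members with near-identical promoters are related by descent.

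**Figure D1:**
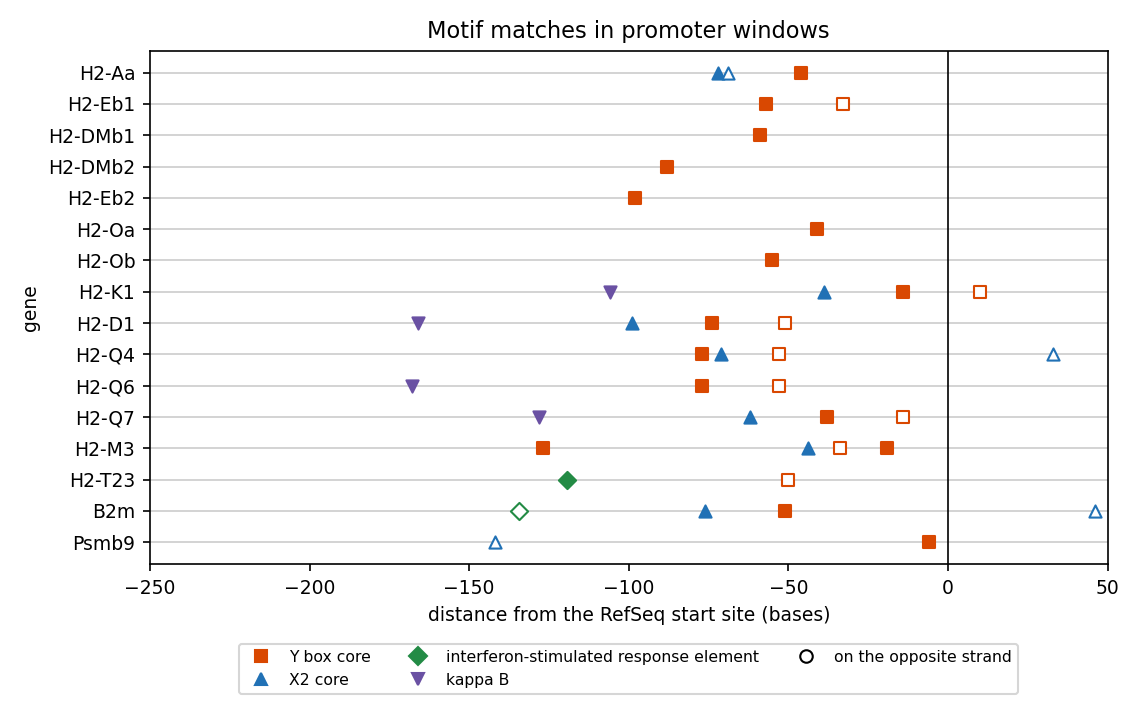
Positions of motif letters in the promoter windows of 16 members, as distance in bases from the RefSeq start site (0); filled marks lie on the strand of the gene and open marks on the other. The X2 core sits 24 to 26 bases before a Y box core in H2-Aa, H2-K1, H2-D1, H2-Q7, H2-M3 and B2m. Each class II gene drawn has a Y box core upstream of its start. H2-DMa, the class II gene with a window but no Y box core, was not drawn.

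Gene counts were scaled to CPM, the usual per-library unit for read counts, on an effective library size that corrects for the makeup of each library. A gene was called a differentially expressed gene (DEG) where edgeR's quasi-likelihood test gave an adjusted p (Benjamini-Hochberg) under 0.05 and the fold exceeded 1.5. The libraries held 10963849 to 14333311 counts, so that 3 counts, taken as the floor of detection, corresponded to 0.179 to 0.309 CPM. Mitochondrially encoded transcripts took 9.39 to 9.86% of counts on day 0 and 3.82 to 4.42% on day 21.

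MHC and antigen processing genes were upregulated broadly on day 21. Of the 46 members, 37 had at least 1 count, 32 passed the filter on low counts and 28 of those were called higher, against 19.6% of all 16592 genes tested. None was called lower by edgeR, DESeq2 or limma-voom, none had a negative estimate in the edgeR fit (0 lower at an unadjusted p under 0.05), and 15.5% of all genes tested were called lower. H2-M2 and H2-Eb2 passed the filter only through their day-21 counts; without them 26 of 30 were called higher. The values of the day-0 and day-21 mice did not overlap for 30 of the 32 members, against 57.1% of all genes tested. Together the members took 0.199, 0.220 and 0.174% of all counts on day 0 and 0.946, 1.10 and 0.949% on day 21. The median log2 fold change of the tested members was 1.96, or 1.89 with H2-M2 at its lower bound, beside 0.03 for all genes tested. In whole kidney, more cells that express these genes and more mRNA in each cell cannot be told apart.

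**Figure D2:**
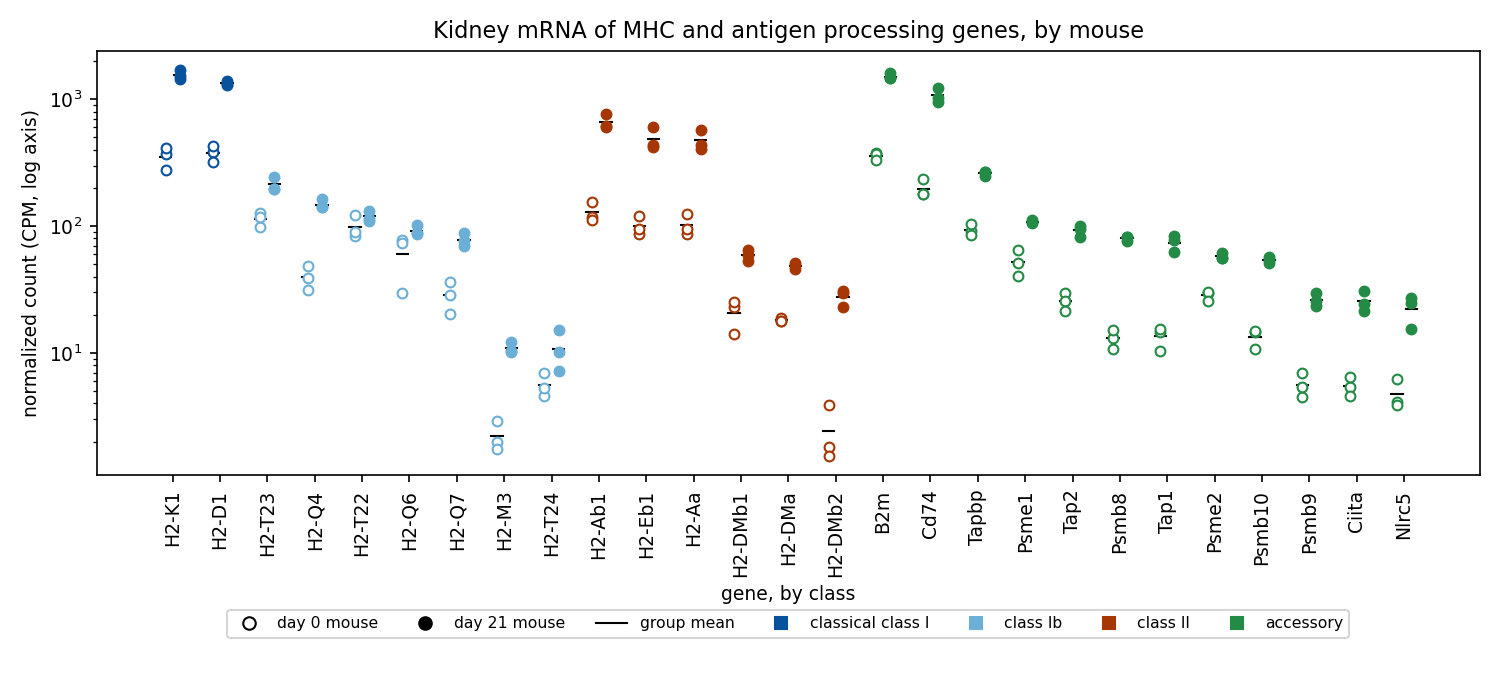
Normalized count in CPM (log axis) of the 27 tested members with a mean of at least 50 counts, by mouse; open circles are the 3 day-0 mice, filled circles the 3 day-21 mice and bars the group means. Apart from H2-T22, every gene drawn has its 3 day-21 mice above its 3 day-0 mice. Of all genes tested, 57.1% had groups that did not overlap, in either direction.

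The classical class I heavy chains H2-K1 and H2-D1, which present peptides to CD8 T cells, made up most of the class I mRNA and rose together with their light chain. H2-K1 (chr17:33996017-34000347) was measured at 369, 413 and 275 CPM in the day-0 mice and at 1449, 1701 and 1538 CPM in the day-21 mice. The groups were far apart, with a mean of 352 ± 70.4 CPM (SD, n = 3) on day 0 and 1563 ± 128 CPM on day 21, a log2 fold change of 2.15 ± 0.16 (SE, edgeR adjusted p = 5.6e-06). H2-D1 (chr17:35262730-35267499) stood at 382, 428 and 322 CPM on day 0 and at 1324, 1391 and 1287 CPM on day 21. Each day-21 mouse was above each day-0 mouse, and the log2 fold change was 1.82 ± 0.13 (SE, edgeR adjusted p = 4.4e-06). B2m (chr2:122147686-122153083), the light chain without which the heavy chain does not reach the surface in stable form, gave 375, 373 and 331 CPM on day 0 and 1598, 1460 and 1476 CPM on day 21. Its log2 fold change was 2.07 ± 0.12 (SE, edgeR adjusted p = 1.4e-06), with no overlap between the groups.

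The proportions of these 3 genes were compared within each library. The ratio of B2m to H2-K1 counts was 1.02, 0.904 and 1.20 on day 0 and 1.10, 0.858 and 0.960 on day 21, and the ranges overlapped (exact two-sided permutation p = 0.6, adjusted over 8 ratios 0.686). The ratio of H2-K1 to H2-D1 was 0.966, 0.965 and 0.854 on day 0 and 1.09, 1.22 and 1.20 on day 21, so that H2-K1 counts passed those of H2-D1 in each day-21 mouse and in no day-0 mouse. With 3 mice against 3, the smallest two-sided exact permutation p is 0.1, which this ratio reached (adjusted over 8 ratios 0.133). H2-K1 shares 8.11% of its 50-base words with other genes and H2-D1 14.32%, so reads between close class I genes may have been assigned in part by the counting. Per kb of exon, the B2m level was 418 CPM on day 0 and 1757 CPM on day 21, beside 120 and 532 CPM for H2-K1 and 146 and 517 CPM for H2-D1.

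The class Ib genes, which have less variable heavy chains and narrower or other ligands, moved less evenly. Of the 22, 10 passed the filter and 7 of these were called higher, beside 19.6% of all genes tested. Their median log2 fold change was 1.08. Without H2-M2, 6 of 9 were called, at a median of 1.05. H2-M3, which binds formylated peptides from bacteria and mitochondria, was at 2.91, 1.98 and 1.75 CPM on day 0 and at 12.2, 10.4 and 10.2 CPM on day 21. The groups did not overlap, and the log2 fold change was 2.31 ± 0.25 (SE, edgeR adjusted p = 4.5e-05), close to that of H2-K1. H2-T23, the heavy chain of Qa-1, which the inhibitory receptor CD94-NKG2A binds, was at 98.0, 128 and 118 CPM on day 0 and at 245, 197 and 197 CPM on day 21. It was called higher with a log2 fold change of 0.89 ± 0.14 (SE, edgeR adjusted p = 0.00046), below that of either classical gene.

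Genes of the Q region rose to different degrees. H2-Q4 was at 48.2, 38.7 and 31.4 CPM on day 0 and at 162, 141 and 141 CPM on day 21, a log2 fold change of 1.91 ± 0.16 (SE, edgeR adjusted p = 9.2e-06). H2-Q7, a gene for Qa-2, was at 36.4, 28.8 and 20.1 CPM on day 0 and at 75.7, 87.8 and 70.1 CPM on day 21, a log2 fold change of 1.45 ± 0.19 (SE, edgeR adjusted p = 0.00017). In both, the lowest day-21 mouse lay above the highest day-0 mouse. H2-Q6, the close copy of H2-Q7, was at 77.1, 73.5 and 29.7 CPM on day 0 and at 88.7, 102 and 86.4 CPM on day 21. The groups of H2-Q6 did not overlap, but 1 day-0 mouse lay far below the other 2, and the log2 fold change of 0.62 ± 0.28 (SE, 95% interval -0.01 to 1.24) was not called (edgeR adjusted p = 0.097).

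H2-Q6 and H2-Q7 share 32.0% and 28.4% of their 50-base words with other genes, so the split of reads between them is uncertain. H2-Q4 shares 22.0% of its words, and 19.1% of its exon bases lie opposite another gene. Counted together, the Q genes gave a log2 fold change of 1.31 ± 0.21 (SE, edgeR adjusted p = 0.00063). H2-T22, a ligand of gamma delta T cells, was at 84.3, 123 and 90.5 CPM on day 0 and at 132, 115 and 110 CPM on day 21. Its groups overlapped, and the estimate of 0.26 ± 0.15 (SE, 95% interval -0.08 to 0.60) was not called (edgeR adjusted p = 0.19). H2-T22 shares 35.8% of its words, chiefly with H2-T10, and 29.4% of its exon bases lie opposite another gene. The T genes counted together gave 0.64 ± 0.14 on the log2 scale (SE, edgeR adjusted p = 0.0043).

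The remaining class Ib genes were low. H2-T24 was at 4.61, 5.28 and 7.01 CPM on day 0 and at 15.2, 7.16 and 10.1 CPM on day 21, with a log2 fold change of 0.94 ± 0.29 (SE, edgeR adjusted p = 0.024) that was lost on leaving out the first day-21 mouse (0.62), the first day-0 mouse (0.80) or the second day-0 mouse (0.89). H2-Q2 was called higher at 1.11 ± 0.30 on the log2 scale (SE, edgeR adjusted p = 0.013), a call that was lost without the third day-21 mouse (1.04). H2-Q10, mainly a gene of the liver, gave 18, 18 and 4 counts for day 0 and 52, 37 and 31 for day 21 and was not called (1.05 ± 0.49, edgeR adjusted p = 0.11).

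H2-M2 is among the H2-M genes of the distal end of the complex. Its counts were 1, 0 and 0 for day 0, against 16, 42 and 32 for day 21. All day-0 counts were under the floor of 3 counts per library, so that H2-M2 was at least 3.66-fold higher on day 21. It was called (edgeR adjusted p = 0.00041), but had passed the filter only through the day-21 mice. H2-M1, H2-M5, H2-M10.5 and H2-Q1 had 1 to 2 counts at most in any mouse, and H2-T3, H2-M9, H2-M11 and the other H2-M10 genes had none. H2-Ke6 also had no count in any mouse, and 96.3% of its 50-base words are shared with the overlapping readthrough gene Gm20427, whose part in this zero was not tested.

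The class II genes for the peptide-binding chains rose more than the classical class I genes by estimate, although their intervals overlapped. H2-Ab1 (chr17:34257689-34269419), the beta chain of I-A, was at 118, 155 and 112 CPM on day 0 and at 607, 768 and 611 CPM on day 21. The lowest day-21 mouse lay far above the highest day-0 mouse, and the log2 fold change was 2.37 ± 0.16 (SE, edgeR adjusted p = 3.1e-06). H2-Aa (chr17:34282744-34287823), its alpha chain partner, was at 86.0, 125 and 95.1 CPM on day 0 and at 408, 576 and 437 CPM on day 21, a log2 fold change of 2.21 ± 0.18 (SE, edgeR adjusted p = 8.5e-06). H2-Eb1 (chr17:34305867-34316674), the beta chain of I-E, was at 86.0, 120 and 95.4 CPM on day 0 and at 420, 600 and 439 CPM on day 21, a log2 fold change of 2.27 ± 0.18 (SE, edgeR adjusted p = 6.6e-06). In all 3 genes the second mouse was the highest of its group on both days, and the groups did not overlap. C57BL/6J mice lack a working alpha chain of I-E, and the row of that gene, H2-Ea-ps, held 1 count over all 6 mice.

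The invariant chain Cd74, which escorts class II chains to the endosome and blocks their groove on the way, followed them. It was at 178, 235 and 179 CPM on day 0 and at 960, 1238 and 1029 CPM on day 21. The groups were apart, with a log2 fold change of 2.45 ± 0.16 (SE, edgeR adjusted p = 2.4e-06). The ratio of H2-Aa to Cd74 counts was 0.484, 0.532 and 0.533 on day 0 and 0.425, 0.466 and 0.424 on day 21, without overlap (exact two-sided permutation p = 0.1, the smallest possible, adjusted over 8 ratios 0.133).

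The class II peptide editors split. H2-DMa and H2-DMb1 encode chains of H2-M, which exchanges the invariant chain fragment for peptide. H2-DMa was at 18.9, 17.9 and 17.9 CPM on day 0 and at 49.1, 51.5 and 45.7 CPM on day 21, a log2 fold change of 1.42 ± 0.12 (SE, edgeR adjusted p = 8.8e-06). H2-DMb1 was at 22.9, 25.4 and 14.2 CPM on day 0 and at 59.5, 64.4 and 53.2 CPM on day 21, a 2.83-fold rise with an SE of 0.19 on the log2 scale (edgeR adjusted p = 0.00014). Both sets of mice were apart. H2-DMb2, the second beta chain gene of H2-M, was at 1.81, 3.87 and 1.55 CPM on day 0 and at 29.6, 30.8 and 23.2 CPM on day 21. Its log2 fold change of 3.49 ± 0.29 (SE, edgeR adjusted p = 9.9e-06), an 11.2-fold rise, had a 95% interval of 2.84 to 4.14 that lay above the 1.07 to 1.92 of H2-DMb1. The H2-DMb genes are near copies, 29.5% and 27.2% of their words being shared with other genes, so the split of reads between them is uncertain.

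H2-DMa was also set against H2-Aa, a chain that H2-M serves, within each library. The ratio of H2-DMa to H2-Aa counts was 0.219, 0.143 and 0.189 on day 0 and 0.120, 0.0894 and 0.105 on day 21, without overlap (exact two-sided permutation p = 0.1, the smallest possible, adjusted over 8 ratios 0.133). The chains of H2-O, which holds back H2-M and is best known from B cells, were low. H2-Ob was at 1.91, 1.15 and 1.24 CPM on day 0 and at 2.12, 2.27 and 1.59 CPM on day 21, with overlap and no call (0.48 ± 0.37 on the log2 scale, 95% interval -0.34 to 1.30, edgeR adjusted p = 0.31). H2-Oa gave 3, 8 and 3 counts for day 0 and 14, 18 and 10 for day 21. It did not pass the filter, and its CPM values overlapped (exact two-sided permutation p = 0.2). H2-Eb2, a second I-E beta chain gene, gave 0, 1 and 4 counts for day 0 against 15, 21 and 12 for day 21 and was called higher (2.61 ± 0.75 on the log2 scale, SE, edgeR adjusted p = 0.017). This call was lost on leaving out the second mouse of either group (2.27 without the day-0 mouse, 2.42 without the day-21 mouse).

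**Figure D3:**
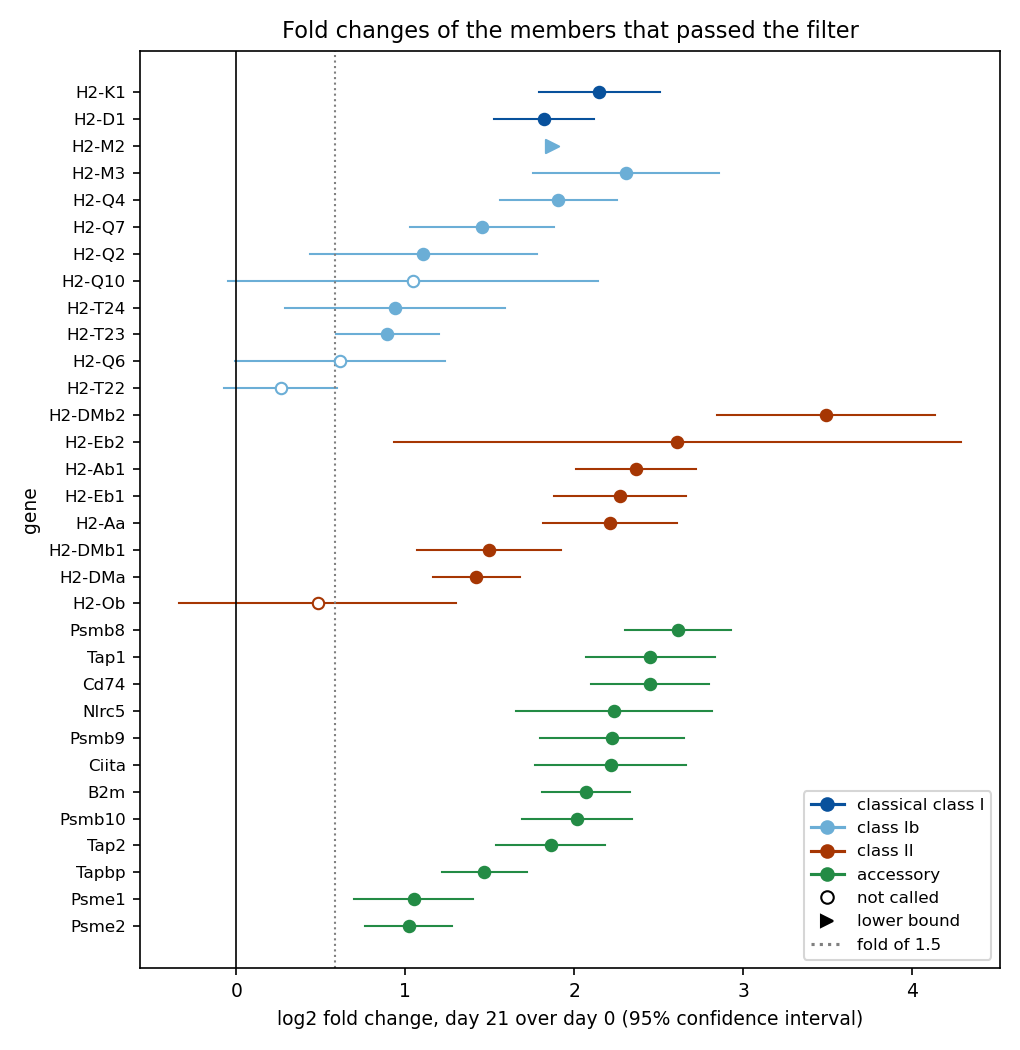
Log2 fold change, day 21 over day 0, of the 32 tested members with 95% confidence intervals, by class; filled circles were called higher, open circles were not, and the triangle is the lower bound of H2-M2. All estimates lie above 0, and the 4 open circles are H2-Q10, H2-Q6, H2-T22 and H2-Ob.

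Summed over genes, class II rose by more than class I. The class I genes together were at 1106, 1244 and 898 CPM on day 0 and at 3512, 3760 and 3458 CPM on day 21, a 3.30-fold rise of the mean. The class II genes together were at 336, 449 and 338 CPM on day 0 and at 1577, 2096 and 1612 CPM on day 21, a 4.70-fold rise. Within class I, the classical genes together rose 3.97-fold and the class Ib genes together 1.93-fold. In each library, class II counts per class I count were 0.304, 0.361 and 0.377 on day 0 and 0.449, 0.557 and 0.466 on day 21. The day-21 ratios all lay above the day-0 ratios, by 0.50 on the log2 scale in the mean, and no test was made of this sum over members. Class I stayed the larger class in every mouse, also per kb of exon (402, 449 and 322 CPM per kb against 134, 178 and 133 for class II on day 0, and 1271, 1358 and 1251 against 628, 832 and 638 on day 21).

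The makeup within each class differed between the groups as well. H2-K1 and H2-D1 together held 66.5 to 67.9% of class I counts on day 0 and 79.0 to 82.2% on day 21. H2-Aa, H2-Ab1 and H2-Eb1 together held 86.4 to 89.5% of class II counts on day 0 and 91.0 to 92.8% on day 21. Neither range overlapped between the groups.

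**Figure D4:**
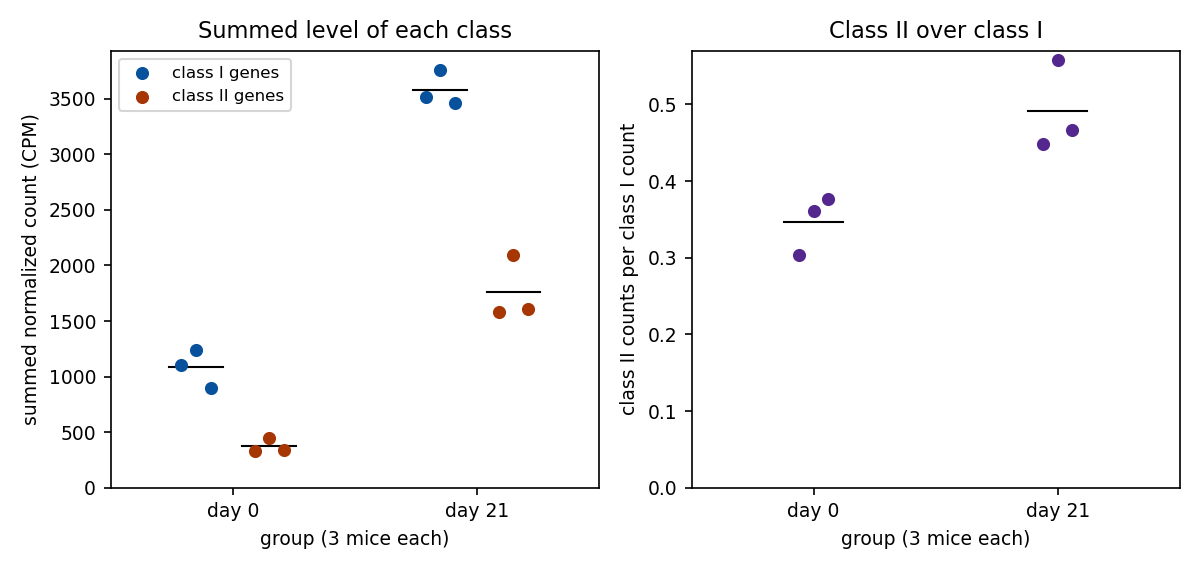
Left, summed normalized counts (CPM) of the 24 class I and the 9 class II genes in each mouse, with group means as bars. Right, class II counts per class I count in each mouse, 0.304 to 0.377 on day 0 and 0.449 to 0.557 on day 21.

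The coactivators of both classes rose. Ciita, the class II coactivator, was at 5.42, 4.62 and 6.49 CPM on day 0 and at 24.2, 31.0 and 21.4 CPM on day 21, a log2 fold change of 2.22 ± 0.20 (SE, edgeR adjusted p = 1.6e-05). Nlrc5, the class I coactivator, was at 6.22, 4.12 and 3.92 CPM on day 0 and at 26.9, 24.8 and 15.4 CPM on day 21, a log2 fold change of 2.24 ± 0.26 (SE, edgeR adjusted p = 7.5e-05). Neither gene's groups overlapped. Of the 7 promoter factors that carry these coactivators on DNA (the Rfx, Nfy and Creb1 genes), 1 was called higher, beside 19.6% of all genes tested. This was Rfx5, at 1.04 ± 0.17 on the log2 scale (SE, edgeR adjusted p = 0.00073). The median was 0.06 and the lowest estimate was that of Nfyc (-0.13).

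The genes that interferon gamma acts through were partly raised, with 6 of 9 tested called higher, beside 19.6% of all genes tested. Their median log2 fold change was 1.23. Without Socs1, which passed the filter only through day 21, 5 of 8 were called. Socs1, a feedback inhibitor, had the highest estimate (2.21 ± 0.48, SE, edgeR adjusted p = 0.0037), and the kinase Jak1 the lowest (0.06 ± 0.13, SE, edgeR adjusted p = 0.76). Ifng itself went uncounted on day 0 and reached 2, 1 and 3 counts on day 21, none above the floor, so no fold is given.

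The peptide transporter and its loading partner were all called higher. Tap1 was at 14.5, 15.6 and 10.4 CPM on day 0 and at 82.9, 77.1 and 62.7 CPM on day 21, a log2 fold change of 2.45 ± 0.17 (SE, edgeR adjusted p = 3.8e-06). Tap2, the other chain of the transporter, was at 29.8, 25.5 and 21.2 CPM on day 0 and at 95.7, 100 and 82.2 CPM on day 21, a log2 fold change of 1.86 ± 0.14 (SE, edgeR adjusted p = 6.7e-06). Tapbp, or tapasin, which bridges the transporter and the empty class I molecule, was at 92.3, 104 and 85.2 CPM on day 0 and at 268, 265 and 247 CPM on day 21, a log2 fold change of 1.47 ± 0.11 (SE, edgeR adjusted p = 6.7e-06). All 3 had every day-21 mouse above every day-0 mouse. Shares of 24.9% of the exon bases of Tapbp and 18.5% of those of Tap2 lie opposite another gene, and reads from opposite strands may not have been told apart.

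The general chaperones and peptidases of class I loading did not follow as a group: 3 of 11 were called higher, beside 19.6% of all genes tested. Their median was 0.02. Tapbpl, a relative of tapasin that edits peptides, had the highest estimate (1.07 ± 0.12, SE, edgeR adjusted p = 6.7e-05). Erap1, the peptidase that trims peptides in the endoplasmic reticulum, came next at 0.97 ± 0.11 (SE, edgeR adjusted p = 6.7e-05). Hspa5, a chaperone of the same compartment, had the lowest estimate, -0.50 ± 0.14, and was within the fold limit.

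The immunoproteasome is a proteasome in which the 3 catalytic subunits are replaced by Psmb8, Psmb9 and Psmb10, which changes the peptides made for class I. Psmb8 was at 13.1, 15.3 and 10.8 CPM on day 0 and at 82.8, 82.4 and 75.8 CPM on day 21, a log2 fold change of 2.61 ± 0.14 (SE, edgeR adjusted p = 1.2e-06). Psmb9 was at 4.51, 6.92 and 5.36 CPM on day 0 and at 25.7, 29.9 and 23.4 CPM on day 21, a log2 fold change of 2.22 ± 0.19 (SE, edgeR adjusted p = 1.2e-05). Psmb10 was at 10.7, 14.5 and 14.9 CPM on day 0 and at 54.2, 57.5 and 51.3 CPM on day 21, a log2 fold change of 2.02 ± 0.15 (SE, edgeR adjusted p = 4.6e-06). None of the 3 had overlapping groups. The 14 genes of the constitutive core gave no DEG by edgeR, DESeq2 or limma-voom (2 higher and 1 lower at an unadjusted p under 0.05), with estimates from -0.27 for Psmb7 to 0.30 for Psma7 and a median of 0.02.

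Set against the subunit that each replaces, the inducible genes gained within each library. The ratio of Psmb8 to Psmb5 counts was 0.354, 0.355 and 0.305 on day 0 and 2.03, 2.30 and 1.97 on day 21, a 6.21-fold rise. The ratio of Psmb9 to Psmb6 was 0.0425, 0.0566 and 0.0566 on day 0 and 0.277, 0.310 and 0.238 on day 21, and that of Psmb10 to Psmb7 was 0.0979, 0.125 and 0.143 on day 0 and 0.598, 0.647 and 0.545 on day 21. Psmb8 was thus the only one of the 3 to outnumber its partner in counts, which were not corrected for length. Per kb of exon, the mean day-21 level of Psmb8 stayed below that of Psmb5 (23.8 CPM against 42.7 CPM). Each ratio reached the smallest two-sided exact permutation p of 0.1 (adjusted over 8 ratios 0.133).

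**Figure D5:**
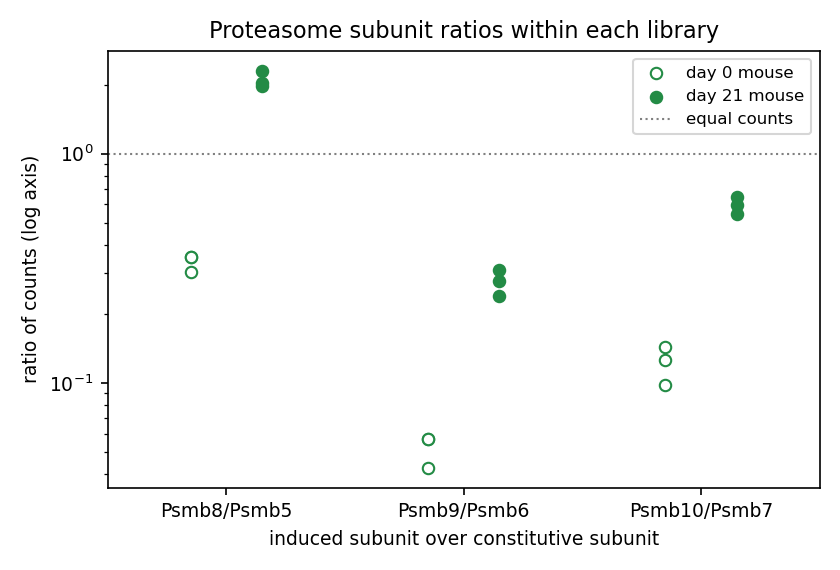
Ratio of counts (log axis) of each inducible catalytic proteasome subunit to the constitutive subunit it replaces, by mouse; open circles are day-0 mice, filled circles day-21 mice and the dotted line marks equal counts. The day-21 ratios lie above the day-0 ratios in all 3 pairs, and pass the line in Psmb8 over Psmb5 alone. The counts were not corrected for gene length.

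Psme1 and Psme2, the subunits of the interferon-inducible PA28 cap of the proteasome, had the smallest changes among the accessory genes. Psme1 was at 50.8, 65.1 and 40.4 CPM on day 0 and at 106, 111 and 108 CPM on day 21, a log2 fold change of 1.05 ± 0.16 (SE, edgeR adjusted p = 0.00039). Psme2 was at 29.8, 30 and 25.6 CPM on day 0 and at 55.8, 60.9 and 56.4 CPM on day 21, a log2 fold change of 1.02 ± 0.12 (SE, edgeR adjusted p = 6.1e-05). Both had groups apart; 59.3% of the words of Psme2 are shared, with the near copy Psme2b. The other proteasome activators and assembly factors gave 1 DEG among 5, the lower Psme4 (-0.68 ± 0.12, SE, edgeR adjusted p = 0.0009), beside 15.5% of all genes tested called lower.

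The endosomal genes that prepare class II for peptide rose in part, with 5 of 9 called higher and 1 lower, at a median of 0.66. Among all genes tested, 19.6% were called higher and 15.5% lower. Ctss, the protease that removes the last of the invariant chain, was at 17.3, 21.1 and 20.3 CPM on day 0 and at 213, 223 and 221 CPM on day 21. The groups did not overlap, and the log2 fold change of 3.48 ± 0.12 (SE, edgeR adjusted p = 2e-07) was the highest of this list. March1, the ligase that takes class II off the surface of antigen-presenting cells, was also higher (1.20 ± 0.32, SE, edgeR adjusted p = 0.011). March8, its widely expressed relative, was the gene called lower (-0.81 ± 0.12, SE, edgeR adjusted p = 0.00035).

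Receptors and costimulatory partners were counted next. A list of class I receptors and related immune receptors was used, and not all of its genes bind class I molecules. Of its 7 genes that were tested, 6 were called higher (5 by DESeq2 and by limma-voom), beside 19.6% of all genes tested, at a median of 1.69. Klrd1 and Lilrb4a passed the filter only through day 21, and without them 4 of 5 were called, at a median of 1.47. Klrd1, which encodes the CD94 chain that binds Qa-1, had the highest estimate (2.33 ± 0.68, SE, edgeR adjusted p = 0.017), with 0, 5 and 2 counts for day 0 and 18, 15 and 20 for day 21. Cd8a, the coreceptor of class I, was at 0.802, 2.72 and 1.24 CPM on day 0 and at 5.87, 4.71 and 5.21 CPM on day 21. Of 5 costimulatory genes tested, 2 were called higher, beside 19.6% of all genes tested. These were Cd86 (2.02 ± 0.30, SE, edgeR adjusted p = 0.00039) and Cd40, while Cd80 had the lowest estimate (-0.21 ± 0.49, SE, edgeR adjusted p = 0.76).

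Some markers of leukocytes moved with the class II genes. Ptprc, the pan-leukocyte marker CD45, was at 10.6, 8.16 and 10.7 CPM on day 0 and at 57.4, 53.3 and 57.7 CPM on day 21. The ratio of H2-Ab1 to Ptprc counts was 11.1, 19.0 and 10.5 on day 0 and 10.6, 14.4 and 10.6 on day 21, so that the groups overlapped (exact two-sided permutation p = 0.7, adjusted over 8 ratios 0.7). Of the 9 macrophage and monocyte markers, 8 were called higher, and their summed level went from 145 to 183 CPM on day 0 to 785 to 917 CPM on day 21. Of the 7 dendritic cell markers, 2 were called higher (Itgax and Batf3), near the 19.6% of all genes, with summed levels of 18.8 to 22.0 CPM and 39.5 to 53.1 CPM. The part of these cells in the rise of the class II genes was not tested.

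Lymphoid and parenchymal markers were measured in the same way. All 5 T cell markers were called higher, beside 19.6% of all genes tested. Without Cd3d, which passed the filter only through day 21, 4 of 4 were called. The T cell markers had sums of 3.21 to 8.74 CPM on day 0 and 21.6 to 23.98 CPM on day 21. Of 5 B cell markers, 1 was tested and none called (0 at an unadjusted p under 0.05, and none by DESeq2 or limma-voom), and their summed level was 0.928 to 2.97 CPM on day 0 and 2.21 to 4.06 CPM on day 21. Cd79b, the marker tested, had 7, 25 and 3 counts for day 0 and 27, 52 and 25 for day 21 (1.04 ± 0.57 on the log2 scale, SE, edgeR adjusted p = 0.17), while Ms4a1 and Pax5 had at most 3 counts in any mouse. Of 4 natural killer cell markers, 1 was tested and none called by edgeR, DESeq2 or limma-voom, with 1 at an unadjusted p under 0.05 (sums of 1.5 to 2.97 CPM against 4.10 to 5.58 CPM). The kidney was recognisable by its epithelial markers, which were abundant on both days (sums of 14150 to 15880 CPM on day 0 against 5598 to 5881 CPM on day 21). Of these 8 markers, 7 were called lower on day 21, beside 15.5% of all genes tested. The other, Umod, was also lower but within the fold limit (-0.45 ± 0.15 on the log2 scale, SE, edgeR adjusted p = 0.027). Of 4 endothelial markers 1 was called lower, Kdr, beside 15.5% of all genes tested, with sums of 299 to 344 CPM and 160 to 262 CPM. The part of these shifts in the MHC results was not tested.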

How the data were processed

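RNA sequencing was done on 6 mouse kidney libraries (3 on day 0, 3 on day 21) made with an Illumina TruSeq kit and read as 150-base pairs. The authors deposited raw counts per gene, not normalized, for GENCODE M21 identifiers. The submitters' processing notes name TopHat and mm10; the counting program, its treatment of shared reads and its strand setting are not given in the sources used here. The table held 0 columns of other samples. Counts were filtered with filterByExpr (minimum count 10, total 15), scaled with TMM and tested across all 16592 retained genes with edgeR 4.0.16 (quasi-likelihood test, R 4.3.3) with Benjamini-Hochberg adjustment; the study's limits for DEGs were used (adjusted p below 0.05, fold above 1.5). DESeq2 1.42.0 and limma 3.58.1 were alternatives. Ratios and single values were compared by exact permutation (SciPy 1.17.1). The edgeR step was tested on simulated counts. Levels per kb used the merged exon length of each gene. Sharing of sequence was the percent of 50-base words of the longest GENCODE M21 transcript present in transcripts of another gene.

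Given with the value in every mouse were the classical class I genes, the main class II genes, the accessory genes and each other tested member with a mean of at least 50 counts; other members were named by counts or ranges, and pathway lists (9) and marker lists (8) by counts with the highest and lowest estimates. Genes or values outside this rule (Ifng, Erap1, March1, Cd40, Cd8a, the remaining low members) were picked with their values in view. The members and lists were chosen with earlier results of these data known. Promoter letters came from RefSeq windows on GRCm38.p6. Printed stretches avoid exons of protein-coding GENCODE M21 transcripts. Alternatives were other scalings, filters, tools, thresholds, libraries left out, a replicate block and summed gene families. Counting intervals were not used, because only comparisons across mice are reported, and the 3-count floor covers counting error only.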

Additional observations from a re-analysis of the deposited data

How the results depend on the processing

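Across 17 alternative settings, 519 of 531 single-member results kept their direction and their side of the thresholds, 6 lost and 6 gained a call, and none turned; 26 of the 32 tested members kept the same call throughout. The number of members called higher ran from 26 to 28 when single mice were left out, and was 28 with DESeq2, 28 with limma-voom and 24 with stricter limits (adjusted p below 0.01, fold above 2). Scaling by library size alone moved the median of all genes by 0.39 on the log2 scale and the share of DEGs that were higher from 55.8 to 81.7% (36.1% of all genes tested then called higher); 31 members were called higher, adding H2-T22, H2-Q6 and H2-Q10. The log2 ratio of class II to class I level per kb on day 21 was -0.90, and -0.70 with the longest transcript as gene length, and the log2 gain of class II on class I counts ran from 0.41 to 0.56 when single mice were left out. With the replicate number as a replicate block, 29 members were called higher (H2-Q6 added, 0.72 on the log2 scale). Same-numbered mice correlated at -0.02, 0.17 and 0.09 in their deviations, and 3 of 6 correlated best with their own number. With 3 mice a group, these values cannot tell whether the numbers pair the mice. H2-Q6 was also called without a filter (0.62) and without the first day-0 mouse (0.80). Genes with fewer than about 10 counts per library, most class Ib genes among them, could not be compared at this depth.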

Other observations

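Class I-like genes outside the complex, which pair with B2m or resemble its partners but present lipids, metabolites or no antigen at all, went in both directions. Of 6 tested, 3 were called higher and 2 lower, beside 19.6% and 15.5% of all genes tested. Cd1d1, which shows lipids to NKT cells, had counts of 8, 10 and 13 on day 0 and 80, 62 and 108 on day 21 (log2 fold change 2.43 ± 0.36, SE, edgeR adjusted p = 0.00039). Mr1, which shows microbial vitamin metabolites to MAIT cells, was at 8.12, 5.69 and 9.17 CPM on day 0 and at 16.5, 18.6 and 14.9 CPM on day 21 (1.13 ± 0.20, SE, edgeR adjusted p = 0.0012). Fcgrt, the neonatal Fc receptor that recycles IgG and albumin, was at 237, 270 and 233 CPM on day 0 and at 140, 137 and 140 CPM on day 21 (-0.83 ± 0.11, SE, edgeR adjusted p = 0.00014). Azgp1, a secreted relative, was at 67.3, 99.1 and 74.1 CPM on day 0 and at 19.9, 11.3 and 17.5 CPM on day 21 (-2.31 ± 0.22, SE, edgeR adjusted p = 1.9e-05). The groups of these 4 genes did not overlap.

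Among the 11 H2- rows that are not annotated as protein-coding, 4 passed the filter and 2 were called higher, beside 19.6% of all genes tested. They were H2-T10 (1.71 ± 0.35 on the log2 scale, SE, edgeR adjusted p = 0.0027) and H2-Q5 (1.07 ± 0.39, SE, edgeR adjusted p = 0.047). H2-Bl, a class I row of the T region that did not pass the filter, went the other way, with counts of 4, 10 and 12 on day 0 and 0, 1 and 1 on day 21.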
